A study of Homo sapiens with 14 samples.

Results

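Annexins and S100 proteins are small families of calcium-binding proteins, and 10 of their genes are described here in HEK and Jurkat cells and in mixtures of them: ANXA1, ANXA2, ANXA4, ANXA5, ANXA6, ANXA11, S100A4, S100A6, S100A10 and S100A11. They were taken by symbol from the 58440 genes of each library. HEK-293T is an adherent line derived from human embryonic kidney, and Jurkat is a line of leukemic T cells that grows in suspension. Suspensions of both lines were combined so that 100, 80, 60, 50, 40, 20 or 0% of the cells were HEK and the rest Jurkat, and polyadenylated RNA was sequenced after ERCC spike-ins, synthetic RNAs of known amount, had been added. Each of the 7 conditions had 2 libraries, called library 1 and library 2 here, which the submitters describe as technical replicates, so p-values measure only the spread between such libraries. No treatment was described for either line.

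The 14 libraries held between 4468822 and 28303668 gene counts. The shallowest libraries were those of pure Jurkat cells, with 4468822 and 6204316 counts, and a floor of 3 counts corresponded there to 0.671 and 0.484 CPM. CPM scales each library's counts to the same total over genes without spike-ins. Such floors cover counting error only. Spike-ins took 0.674% (95% Wilson interval 0.668 to 0.679) and 1.02% (1.01 to 1.02) of all counts in pure HEK libraries, against 7.65% (7.62 to 7.67) and 7.51% (7.49 to 7.53) in pure Jurkat libraries. Gene counts per spike-in count averaged 122 in HEK and 12.2 in Jurkat, a ratio of 10.0. The paper's approximate ratio of mRNA content, also derived from spike-ins, is lower, and the difference was not examined. The cell number per library was the same by design, so levels per spike-in count are read here as levels per cell. That equivalence was not tested, and the 2 pure HEK libraries had 147 and 97.3 gene counts per spike-in count. CPM stands for a share of the RNA. The numbers of cells of each line rest on the mixing as described. In these bulk samples, fewer cells expressing a gene and less of its RNA per cell cannot be told apart.

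Some libraries stood apart from their pair. Over 9525 genes with enough counts, the log2 ratio of library 2 to library 1 spanned 2.24 between its 5th and 95th percentiles at 50% HEK and 1.95 at 40% HEK, compared with 1.08 to 1.32 at 60, 80, 20 and 100% HEK, and with 1.94 in pure Jurkat cells. At 50% and 40% HEK all 9 members with counts in every library were higher in library 2, by a median of 0.87 and 0.68 on the log2 scale, where the median of all genes was 0.23 and 0.22. The same held for all 9 at 80% HEK, by a median of 0.22, and for 0 of 9 in pure HEK cells. Some results over the mixed libraries, among them the trends of ANXA1, ANXA6 and S100A4, are therefore also given without the 4 libraries at 50% and 40% HEK. The 2 libraries at 80% HEK differed in their spike-ins, with 46.6 and 123 gene counts per spike-in count. File names put the libraries in 2 groups, of 8 and 6 libraries, whose meaning was not stated. Both pure HEK libraries lay in the smaller group and both pure Jurkat libraries in the larger, so effects of line and of group cannot be told apart.

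Annexins share a core of repeats that binds acidic phospholipids when calcium is present, which brings them to the plasma membrane and to endosomes, and they take part in membrane repair, vesicle traffic and the organization of the cortical cytoskeleton. S100 proteins are small EF-hand proteins that form dimers and, on binding calcium, open a surface that grips partner proteins. The families meet physically. S100A10, which lost its ability to bind calcium, is held in a tetramer with ANXA2, S100A11 binds the amino terminus of ANXA1, and S100A6 binds ANXA11 and the ubiquitin ligase adaptor CACYBP. ANXA5 is widely known as a reagent that marks dying cells by binding exposed phosphatidylserine.

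The labels of the lines were checked against marker genes. All 12 Jurkat markers (T cell genes such as CD3D, LCK and PTPRC) were higher in pure Jurkat cells by edgeR's quasi-likelihood test, and their summed level was 3355 and 3832 CPM there against 20.8 and 16.1 CPM in pure HEK cells, where BCL11B was the most abundant at 11.8 and 11.5 CPM. Of 10 HEK markers, 9 were tested and all 9 were higher in HEK cells, with a summed level of 1806 and 1853 CPM against 41.8 and 24.6 CPM. The remaining HEK marker, CTNNA2, had 0 counts in all 4 pure libraries. Markers of other cells were scarce: the 4 monocyte genes summed to at most 1.23 CPM in any library. The B cell gene CD79A (5.15 and 6.93 CPM in Jurkat) and the fibroblast gene COL1A1 (10.9 and 9.96 CPM in HEK) were detected, whereas MS4A1 was at 0 in 13 of 14 libraries.

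Comparing the pure lines, 5 members were higher in HEK cells (S100A11, ANXA5, ANXA2, S100A10 and ANXA4) and 3 were higher in Jurkat cells (ANXA1, S100A4 and ANXA6) at an adjusted p below 0.05 by edgeR. ANXA11 did not pass the threshold, and S100A6 had no counts in either line. For reference, 24.2% of the 15794 genes tested were higher in HEK cells and 19.0% were higher in Jurkat cells at the same threshold. The median log2 fold change (HEK over Jurkat) was 0.92 over the 9 members tested and 0.07 over all genes. These directions hold for a share of the RNA, and those of S100A4 and ANXA6 turn on the scale per spike-in, as described with each gene.

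**Figure D1:**
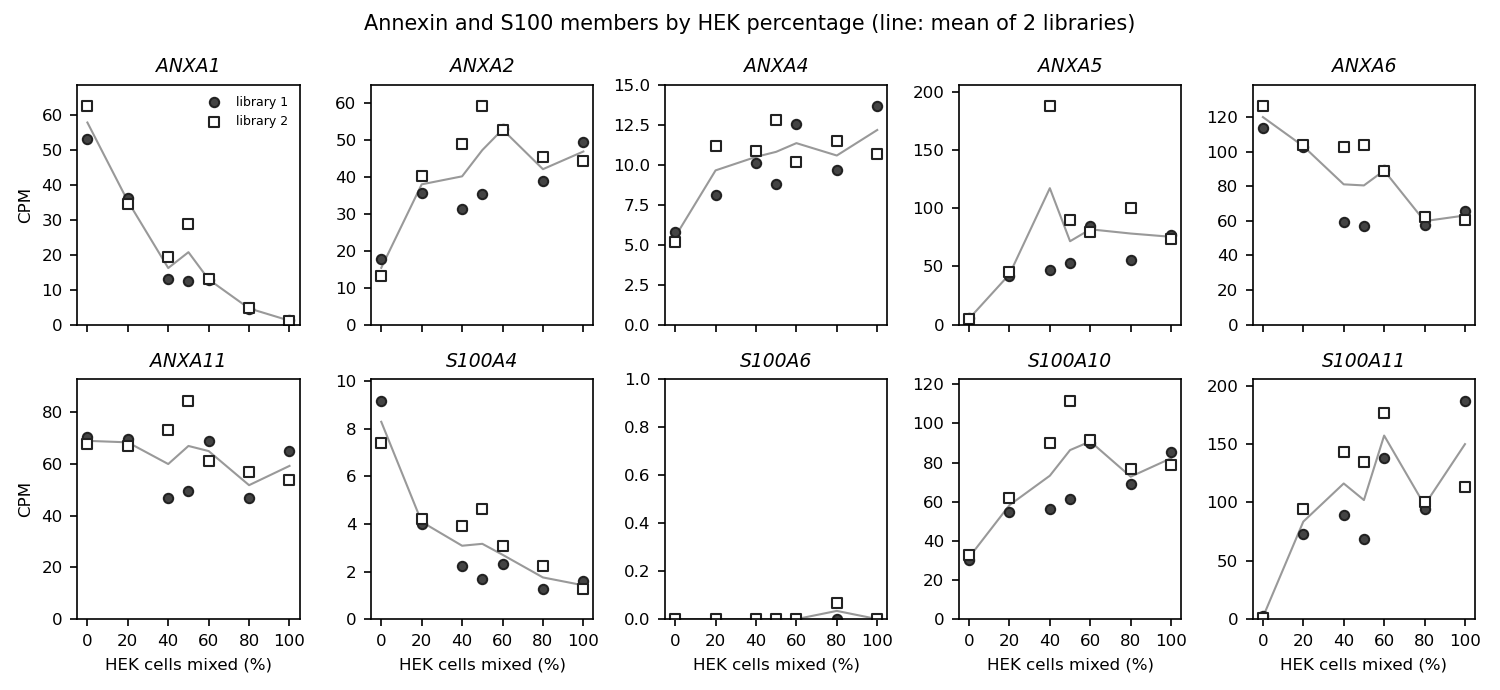
CPM of each member (y axis, linear and starting at 0) against the percentage of HEK cells mixed (x axis); filled circles are library 1, open squares library 2, and the line joins the means of 2 libraries. ANXA1 falls from 53.3 and 62.5 CPM in pure Jurkat cells to 1.16 and 1.06 CPM in pure HEK cells, S100A11 goes from 2.24 and 0.967 CPM to 187 and 113 CPM, and S100A6 stays at or near 0.

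ANXA1, a substrate of growth factor receptor kinases and a mediator of the anti-inflammatory action of glucocorticoids, was the member with the largest excess in Jurkat cells. It was measured at 53.3 and 62.5 CPM in pure Jurkat cells and at 1.16 and 1.06 CPM, from 11 and 16 counts, in pure HEK cells, a 52.2-fold difference of means. The log2 fold change was -5.92 ± 0.28 (SE, adjusted p = 0.00064 by edgeR). The call remained under each of the 11 alternative settings, where the adjusted p ranged from 3.21e-45 to 0.00375. ANXA1 was also the only member whose direction toward Jurkat cells passed the test per spike-in, with 6.43 and 7.71 counts per 1e4 spike-in counts in Jurkat cells and 1.72 and 1.03 in HEK cells.

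S100A4, a dimer that binds nonmuscle myosin and is associated with cell motility, was likewise higher in Jurkat cells, at 9.17 and 7.41 CPM against 1.59 and 1.25 CPM. The difference of means was 5.84-fold, and the log2 fold change was -2.77 ± 0.32 (SE, adjusted p = 0.00308 by edgeR). Per 1e4 spike-in counts the order turned, with 2.34 and 1.22 in HEK cells and 1.11 and 0.914 in Jurkat cells, and the test no longer passed (log2 fold change 0.76, 95% interval -0.53 to 2.05). The lines therefore differed in the share of RNA that S100A4 took, while no difference per spike-in was called.

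The windows around the annotated starts of ANXA1 and S100A4, and of ANXA2 and S100A10, are printed because these pairs had the most similar levels over the libraries. RefSeq windows (GRCh38.p14) of 300 bases, 250 before and 50 after the start, were found for all 10 members, with 14 windows in all. Capitals mark the motifs searched on both strands: the TATA box (TATAAA), the GC box (GGGCGG), the CCAAT box (CCAAT), an AP-1 motif (TGANTCA), a RUNX motif (TGTGGT) and an ETS motif (CCGGAAG). The GC box runs printed for ANXA2 overlap each other. The ANXA1 window is chr9:73151615-73151914 on the plus strand, and those of S100A4 (chr1:153545757-153546056), ANXA2 (chr15:60397937-60398236) and S100A10 (chr1:151993810-151994109) are on the minus strand.
ANXA1: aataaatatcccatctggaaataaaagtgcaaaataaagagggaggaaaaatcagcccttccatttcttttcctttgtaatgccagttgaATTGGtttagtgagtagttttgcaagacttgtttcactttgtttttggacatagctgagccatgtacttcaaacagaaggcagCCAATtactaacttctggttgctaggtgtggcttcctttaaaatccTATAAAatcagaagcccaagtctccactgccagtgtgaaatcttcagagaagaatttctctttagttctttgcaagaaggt
S100A4: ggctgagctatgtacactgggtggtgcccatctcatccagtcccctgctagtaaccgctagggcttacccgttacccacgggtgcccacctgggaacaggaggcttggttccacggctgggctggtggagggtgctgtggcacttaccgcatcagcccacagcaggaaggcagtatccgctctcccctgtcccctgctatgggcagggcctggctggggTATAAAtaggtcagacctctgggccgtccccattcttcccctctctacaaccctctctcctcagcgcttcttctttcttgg
ANXA2: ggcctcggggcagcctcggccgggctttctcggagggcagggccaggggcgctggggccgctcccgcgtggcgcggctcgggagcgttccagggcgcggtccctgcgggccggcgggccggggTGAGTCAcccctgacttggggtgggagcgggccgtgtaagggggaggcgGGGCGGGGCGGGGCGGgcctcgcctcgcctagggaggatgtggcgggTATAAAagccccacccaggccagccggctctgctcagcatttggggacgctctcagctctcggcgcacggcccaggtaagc
S100A10: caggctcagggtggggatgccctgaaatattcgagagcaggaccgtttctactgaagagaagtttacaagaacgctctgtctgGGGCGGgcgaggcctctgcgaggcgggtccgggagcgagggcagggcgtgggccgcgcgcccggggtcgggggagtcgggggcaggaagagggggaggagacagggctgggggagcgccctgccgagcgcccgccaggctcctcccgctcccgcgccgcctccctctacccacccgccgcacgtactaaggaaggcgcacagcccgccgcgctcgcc

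ANXA1, S100A4 and ANXA2 each had TATAAA beginning at position -31 from the start, and a window of ANXA11 had it at -61. Anywhere in a window it was found in 4 of the members' 14 windows and in 11.5% of 35116 windows. The ANXA1 window held 0 CpG dinucleotides and the S100A4 window 8, whereas those of ANXA2 and S100A10 held 32 each, with a median of 14 over all windows. GGGCGG occurred in 9 of the members' 14 windows, which belong to 8 of 10 members, and in 45.0% of all windows. ANXA1 and S100A4 were the members without it. TGANTCA was found in 1 of 14 windows, that of ANXA2 (7.71% of all windows), CCAAT in 3 (34.6%), TGTGGT in 3 (13.1%) and CCGGAAG in 2 (10.3%). The S100A11 window held 22 CpG and that of S100A6, which had no counts in either line, 31. Matches describe letters in a window and were not tested for binding.

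ANXA6, the largest annexin, with a duplicated core, was higher in Jurkat cells by a smaller margin. Its levels were 114 and 126 CPM in Jurkat cells and 65.5 and 60.8 CPM in HEK cells, without overlap (1.90-fold; log2 fold change -1.15 ± 0.20 SE, adjusted p = 0.00963 by edgeR). Without either HEK library the call was lost, at an adjusted p of 0.0809 and 0.0941 by edgeR, and over 11 alternatives it ranged from 7.68e-06 to 0.0941. Per 1e4 spike-in counts ANXA6 was instead higher in HEK cells (96.6 and 59.2) than in Jurkat cells (13.8 and 15.6), and edgeR called it in that direction (log2 fold change 2.41).

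S100A11, a partner of ANXA1 in membrane-bound complexes, showed the largest difference of all members. Pure HEK libraries held 187 and 113 CPM and pure Jurkat libraries 2.24 and 0.967 CPM, the latter from only 10 and 6 counts. The means differed 93.6-fold, with a log2 fold change of 6.37 ± 0.51 (SE, adjusted p = 0.00107 by edgeR). Leaving out each pure library in turn gave log2 fold changes from 5.84, without library 2 of Jurkat, to 7.02, without library 1 of Jurkat, and the call remained. Over 11 alternatives the adjusted p ranged from 1.38e-53 to 0.00666. The gap between the HEK libraries themselves was wider than for any other member.

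ANXA5 followed, at 77.1 and 73.6 CPM in HEK cells and 5.59 and 4.35 CPM in Jurkat cells. That is a 15.1-fold difference (log2 fold change 3.70 ± 0.25 SE, adjusted p = 0.000801 by edgeR). The call remained in each fit that left out a library, and the adjusted p ranged from 1.45e-25 to 0.00459 over 11 alternatives.

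ANXA2 and S100A10, the components of the annexin tetramer, differed between the lines by similar factors. ANXA2 was at 49.4 and 44.4 CPM in HEK cells and 17.6 and 13.1 CPM in Jurkat cells, a 3.05-fold difference (log2 fold change 1.39 ± 0.24 SE, adjusted p = 0.00987 by edgeR). S100A10 was at 85.6 and 78.8 CPM and 30.4 and 32.6 CPM, a 2.61-fold difference (log2 fold change 1.16 ± 0.20 SE, adjusted p = 0.00948 by edgeR). Both calls were lost without library 1 of HEK (adjusted p = 0.0526 and 0.0694 by edgeR), and that of S100A10 also without library 2 of HEK (0.0555). Over 11 alternatives the adjusted p ranged from 2.83e-15 to 0.0526 for ANXA2 and from 7.98e-15 to 0.0694 for S100A10. On both scales the groups did not overlap for either gene, and per spike-in the excess in HEK cells was 31.0-fold for ANXA2 and 26.4-fold for S100A10.

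ANXA4, known from epithelia and secretory cells, had the smallest fitted log2 fold change called, though by means ANXA6 differed less. It was at 13.6 and 10.7 CPM in HEK cells and 5.82 and 5.16 CPM in Jurkat cells (2.22-fold; log2 fold change 0.92 ± 0.26 SE, adjusted p = 0.0411 by edgeR). The call was lost with DESeq2 (adjusted p = 0.139) and without any of the 4 pure libraries (adjusted p from 0.0654 to 0.235 by edgeR), and it held in 6 of 11 alternatives, where the adjusted p ranged from 5.31e-12 to 0.235. ANXA4 also lies over AAK1, which is on the opposite strand and, with the other genes that overlap ANXA4, reached 170 CPM. The library preparation kept the strand, but the setting used in counting was not given in the sources used here, so reads of these genes may be mixed.

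ANXA11, which tethers RNA granules to lysosomes and binds PDCD6, was at similar levels, 64.9 and 53.7 CPM in HEK cells and 70.3 and 67.6 CPM in Jurkat cells. The interval of the log2 fold change ran from -0.97 to 0.08 (adjusted p = 0.140 by edgeR). Per 1e4 spike-in counts ANXA11 was higher in HEK cells, at 95.6 and 52.2 against 8.49 and 8.33, and passed the test there, the only 1 of 11 alternatives in which it did (adjusted p from 2.20e-08 to 0.597).

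S100A6, which in many epithelial and mesenchymal cells is among the abundant S100 mRNAs, had 0 counts in 13 of 14 libraries and 1 count in library 2 at 80% HEK. A count of 0 allows up to 0.317 and 0.198 CPM in the pure HEK libraries and up to 0.671 and 0.484 CPM in the pure Jurkat libraries. S100A6 was left out of the pure comparison by the filter on low counts, and no fold is given.

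**Figure D2:**
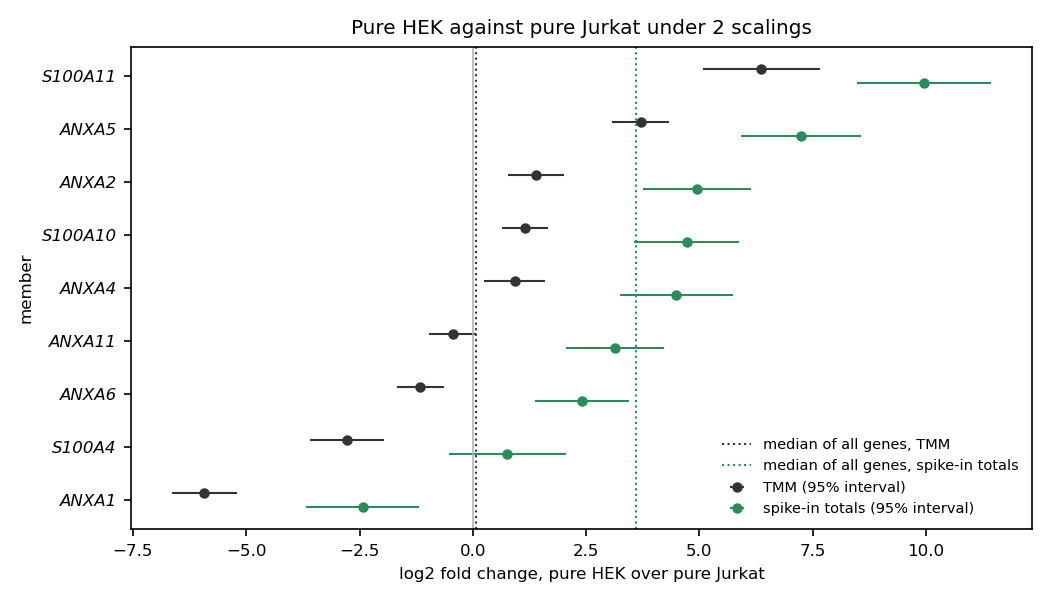
Log2 fold change of pure HEK over pure Jurkat cells (x axis) for the 9 members tested (y axis), with 95% intervals, after TMM normalization (black) and with spike-in totals as library sizes (green); dotted lines are the medians of all genes, 0.07 and 3.61. On the spike-in scale ANXA6, ANXA11 and S100A4 lie above 0, and ANXA1 is the single member whose interval stays below it.

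Scaling by spike-ins shifted the median log2 fold change of all genes from 0.07 to 3.61, so that 92.5% of genes were called higher in HEK cells and 3.22% higher in Jurkat cells. Among the members, 7 were called higher in HEK cells on that scale and 1, ANXA1, higher in Jurkat cells. The order of the members was the same on both scales. That follows from the scaling, which moves all genes by nearly the same amount, and shows nothing about the members. Fold changes per spike-in ranged from 990-fold higher in HEK cells for S100A11 to 5.15-fold higher in Jurkat cells for ANXA1. Per 1e4 spike-in counts S100A11 was at 276 and 110 in HEK cells and at 0.270 and 0.119 in Jurkat cells. Its 990-fold value therefore depends strongly on single libraries. With library totals in place of TMM, the share of called genes that were higher in HEK cells moved from 56.0% to 66.2%, and the calls of the members did not change.

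Levels of different genes were compared per length, as TPM, in which counts are divided by transcript length before they are scaled to the same total. The study primed cDNA with oligo-dT, and whether counts rise with transcript length in these libraries was not tested. Orders of genes by TPM depend on that division. In pure HEK cells S100A11 (267 ± 91 TPM, SD, n = 2) and S100A10 (130.2 ± 4.2) were the highest members, followed by ANXA11 (61.7 ± 5.6) and ANXA5 (60.0 ± 3.3), whose ranges overlapped. In pure Jurkat cells ANXA6 (93.5 ± 3.7 TPM) and ANXA11 (80.2 ± 7.8) came first, then S100A10 (49.8 ± 2.3) and ANXA1 (45.6 ± 6.1), of which the last pair overlapped. Without division by length the order of that pair turned, with means of 57.9 CPM for ANXA1 and 31.5 CPM for S100A10. S100A4, although called higher in Jurkat cells, reached 17.5 ± 3.1 TPM there, below S100A10 in either line.

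In the genome 4 members lie on chromosome 1 (GRCh38, GENCODE): S100A10 (chr1:151982915-151993859) and S100A11 (chr1:152032506-152047907) are 38.6 kb apart, and S100A6 (chr1:153534599-153536244) and S100A4 (chr1:153543613-153550136) are 7.37 kb apart, 1487 kb beyond S100A11. All 4 are on the minus strand. S100A5 lies between S100A6 and S100A4, which were at 0 CPM and at 9.17 and 7.41 CPM in Jurkat cells. The annexins are dispersed: ANXA1 at chr9:73151865-73170393, ANXA2 at chr15:60347134-60402883, ANXA4 at chr2:69644425-69827112, ANXA5 at chr4:121667946-121696995, ANXA6 at chr5:151100706-151157815 and ANXA11 at chr10:80150889-80205572.

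**Figure D3:**
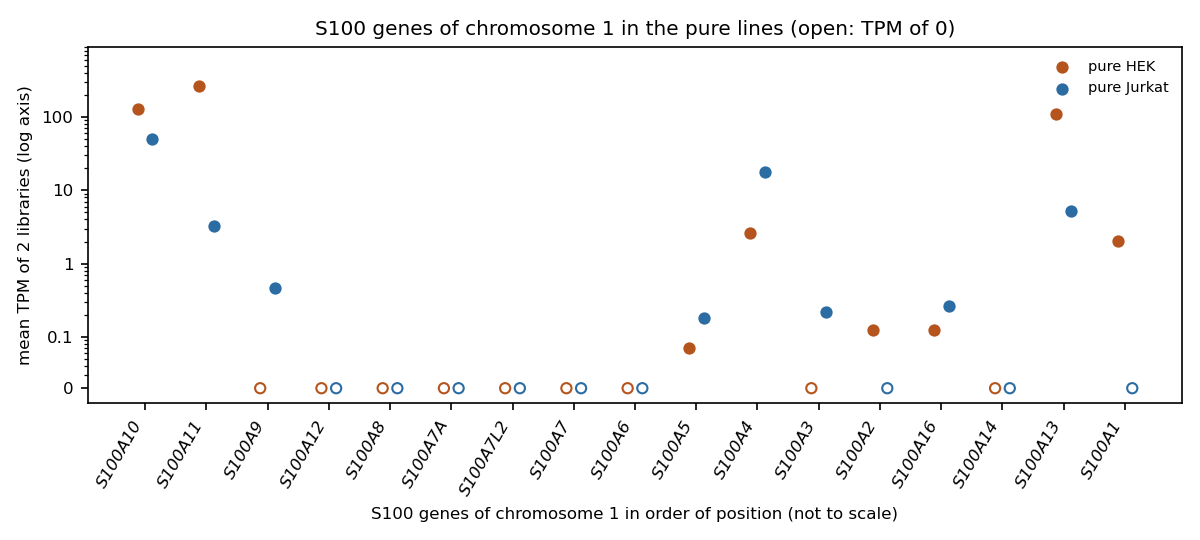
Mean TPM of 2 libraries (y axis, log scale; open circles mark 0) of the 17 S100 genes of chromosome 1, ordered by position along the x axis without scale, in pure HEK (orange) and pure Jurkat (blue) cells. Levels above 1 TPM were reached in either line by 5 of 17 genes, and expressed genes stand beside genes at 0.

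Of the other genes of these families, 7 annexins and 17 S100 genes, only 3 passed the filter on low counts in the pure comparison. S100A13, which is exported with fibroblast growth factor and interleukin precursors, was higher in HEK cells (79.4 and 63.2 CPM against 2.01 and 2.74 CPM; log2 fold change 4.65 ± 0.30 SE, adjusted p = 0.000755 by edgeR). S100Z was higher in Jurkat cells, at 4.92 and 4.51 CPM and 0 counts in HEK cells, which is at least 18.3-fold against the mean floor of 3 counts per library. ANXA7 did not pass the test, with 51.2 and 43.9 CPM in HEK cells and 27.1 and 72.5 CPM in Jurkat cells. Of the myeloid genes, S100A8 and S100A12 had 0 counts in all 14 libraries, and S100A9 had at most 3 counts, in library 2 of Jurkat (0.484 CPM).

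Among 17 partners, receptors and related calcium proteins, 12 were tested, of which 6 were higher in HEK cells, 1 was higher in Jurkat cells and 5 did not pass. Over all genes tested the shares were 24.2% higher in HEK cells and 19.0% higher in Jurkat cells. The large calpain subunit CAPN2 had the largest difference with counts in both lines, at 52.6 and 53.9 CPM in HEK cells and 1.34 and 1.97 CPM in Jurkat cells (log2 fold change 4.76 ± 0.29 SE). The penta-EF-hand proteins PEF1, SRI and GCA were also higher in HEK cells, with log2 fold changes of 1.90, 0.95 and 1.82, as was AHNAK, the giant scaffold that binds the ANXA2 and S100A10 tetramer (1.11). PLA2G4A, the cytosolic phospholipase A2, had 3.28 and 2.51 CPM in HEK cells and 0 counts in Jurkat cells, at least 5.01-fold. MYH9, the myosin heavy chain that S100A4 binds, was higher in Jurkat cells (340 and 204 CPM against 139 and 104 CPM; log2 fold change -1.38 ± 0.32 SE), but per spike-in all 12 tested partners, MYH9 included, were called higher in HEK cells, as were 92.5% of all genes. CACYBP, the partner of S100A6, was at 264 and 734 CPM in HEK cells and 287 and 236 CPM in Jurkat cells and did not pass. The formyl peptide receptors FPR1, FPR2 and FPR3, through which ANXA1 acts on leukocytes, stayed at or below 0.258 CPM in each library.

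The mixed libraries ask whether a gene's level follows the cells put into the tube. In the 10 mixed libraries, ANXA1 fell with the HEK percentage, and it was the only member to pass the test of the trend. With 20% HEK cells its levels were 36.3 and 34.4 CPM, with 40% they were 13.1 and 19.3 CPM, and with 50% they were 12.6 and 28.9 CPM. With 60% HEK cells 12.9 and 13.0 CPM remained, and with 80% only 4.48 and 4.77 CPM. When the 7 conditions were ordered by mean, neighbours in that order overlapped only at 50% and 40% HEK, while the libraries at 50% also spanned those at 60%. The fitted log2 change from 20% to 80% HEK was -2.77 ± 0.38 (SE, adjusted p = 0.000486 by edgeR). Over all 17242 genes tested 5.08% fell and 0.528% rose.

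The decline of ANXA1 was called within each group of file names (log2 change -2.50 and -4.72), with the group as a term (-3.28), and without the libraries at 50% and 40% HEK (-2.85). Mixed libraries of the first group run from 20 to 60% HEK, and the 4 of the second group from 50 to 80%. Both -2.50 and -4.72 therefore extend the slope beyond the libraries they come from. The only library of the second group at 50% is library 2, where ANXA1 was far above its expected level. The decline was not called per spike-in (log2 change -0.96, adjusted p = 0.134 by edgeR), where the median change of all genes was 1.83. Over the 19 alternatives its adjusted p ranged from 3.18e-11 to 0.134.

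S100A4 and ANXA6 had negative slopes that did not pass, with log2 changes of -1.22 (adjusted p = 0.105 by edgeR) and -0.73 (0.131). Without the libraries at 50% and 40% HEK, ANXA6 passed (adjusted p = 0.0454 by edgeR) and S100A4 did not (0.0549). Over 19 alternatives the adjusted p ranged from 0.0454 to 0.665 for ANXA6, which also passed with DESeq2, and from 0.0521 to 0.583 for S100A4. Per spike-in both slopes were positive, 0.72 and 1.12, and were not called. S100A4 lay between 3.98 and 4.20 CPM at 20% HEK and between 1.25 and 2.25 CPM at 80% HEK.

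The 5 members that were higher in HEK cells had slopes in the mixtures that did not pass, although each was lower in pure Jurkat libraries than in any mixed library. Of the 9 HEK markers tested for a trend in the mixtures, only 1 was called as rising, whereas all 12 Jurkat markers were called as falling. S100A11 was already at 73.0 and 94.1 CPM with 20% HEK cells, 94.7 and 100.7 CPM with 80%, and its log2 change over that range was 0.30 (95% interval -0.49 to 1.09; 0.09 to 0.51 on leaving out 1 library). ANXA2 was at 35.7 and 40.3 CPM with 20% and 38.9 and 45.4 CPM with 80% HEK cells. S100A10 was at 54.5 and 61.9 CPM and at 69.0 and 76.5 CPM. The slope of ANXA5 was 0.42 (95% interval -0.86 to 1.70), and leaving out 1 library moved it from 0.08, without either library at 20% HEK, to 0.88, without library 2 at 40%. Its levels were 41.3 and 44.9 CPM with 20% and 55.8 and 100.5 CPM with 80% HEK cells. Slopes of ANXA2, S100A10 and ANXA4 were 0.19, 0.32 and 0.08, and ANXA11, which was not called between the pure lines after TMM, had a slope of -0.40 that did not pass. Within the second group of file names, ANXA2, S100A10, S100A11 and ANXA4 had negative slopes (-0.57, -0.75, -0.64 and -0.18), and none was called. On the spike-in scale all 5 were called as rising, together with ANXA11, as were 13485 of all 17242 genes.

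Over the 7 conditions the order of means was 0 > 20 > 50 > 40 > 60 > 80 > 100% HEK for both ANXA1 and S100A4. For S100A4, neighbours overlapped in 4 of 6 steps. ANXA2, ANXA4, ANXA5, S100A10 and S100A11 had their lowest levels in pure Jurkat cells, followed by 20% HEK. The step between these conditions was free of overlap, and neighbours overlapped in 4 or 5 of the 5 steps above it. ANXA6 had its highest levels in pure Jurkat cells, then at 20% HEK, and ANXA11 overlapped in 6 of 6 steps.

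Levels in the mixtures were next set against those that additive mixing of the pure lines would give. The share of RNA from HEK cells was estimated in each mixed library from genes outside the lists described here. For 20% HEK cells it came to 63.8 and 64.5%, for 40% to 77.6 and 83.2%, for 50% to 82.8 and 91.0%, for 60% to 91.8 and 90.8% and for 80% to 91.5 and 94.2%, so that the RNA was mostly from HEK cells in every mixture. The ratio of 10.0 in gene counts per spike-in count between the pure lines put it at 71.5, 87.0, 90.9, 93.8 and 97.6% for the same order of conditions.

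No member departed from additive mixing by the rule used, a median ratio of observed to expected CPM past 1.5-fold on the same side of 1 in all 10 libraries, and 2.49% of 15128 genes did. That share was much higher when either pure HEK library was left out, as given with the processing. Median ratios of the members lay between 0.866 for S100A11 and 1.65 for ANXA1. ANXA1 was above its expected level in 8 of 10 libraries, with ratios from 0.757 to 4.63. It met the rule with the HEK share from spike-ins (median 2.05, 10 of 10 libraries) or without library 2 of Jurkat (1.94, 10 of 10). With these settings 427 of 15010 and 439 of 15031 genes met the rule, and 83 and 49 of them lay above additive mixing. In the main setting 26 genes met it above additive mixing and 350 below. Without the libraries at 50% and 40% HEK no member met the rule. ANXA2, S100A10, ANXA4 and ANXA11 stayed between 0.765 and 1.44 in each library.

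**Figure D4:**
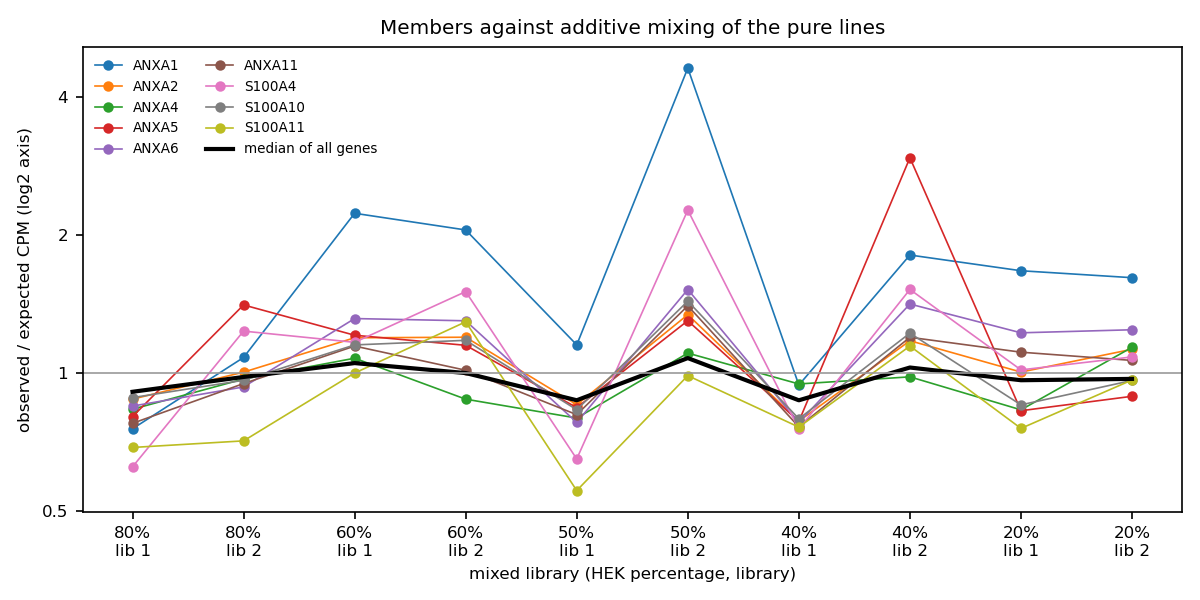
Ratio of observed to expected CPM (y axis, log2 scale) in the 10 mixed libraries (x axis) for the 9 members with counts; the black line is the median of all genes, and lines join the points of a gene to guide the eye. All members lie below 1 in library 1 at 80% and at 40% HEK, 8 of 9 lie above 1 in library 2 at 50% and at 40%, ANXA1 reaches 4.63 in library 2 at 50%, and ANXA5 reaches 2.95 in library 2 at 40%.

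At 50% and 40% HEK most members shifted to the same side between the libraries of a pair. In library 1 at 50% HEK 1 of 9 was above its expected level and in library 2 at 50% 8 of 9 were, with median ratios of 0.813 and 1.40, where the medians of all genes were 0.874 and 1.08. At 40% HEK the members' medians were 0.786 and 1.22. The part of the library preparation in these differences was not tested.

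Mutual linearity, the measure that the study built on, was computed for the members over the 14 libraries. Each gene was divided by its sum over libraries, and the weight of a pair is the mean of both coefficients of determination around the line of equality times Spearman's rho, or 0 where either is not positive. Of the 36 pairs of the 9 members with counts, 8 had a weight above 0, while 17.1% of pairs of a member with another gene of at least 10 CPM did. Libraries share cell stocks, and no test was made.

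The largest weight, 0.905 (rho = 0.952), was that of ANXA2 with its binding partner S100A10. It was followed by ANXA1 with S100A4 (0.710, rho = 0.930) and ANXA2 with ANXA4 (0.604). The remaining linked pairs were ANXA4 with S100A10, S100A11 with ANXA2, S100A10 and ANXA5, and ANXA6 with ANXA11. No pair linked a member that was higher in HEK cells with one higher in Jurkat cells. The pure libraries that set these directions also enter the weights, so that outcome was largely given in advance. The same holds for S100A11 and its partner ANXA1, which ran in opposite directions (rho = -0.543). S100A4 and MYH9 had a weight of 0.140. S100A10 ranked 96th of 9217 genes by its weight with ANXA2, and AHNAK had weights of 0.714 with ANXA2 and 0.716 with S100A10.

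**Figure D5:**
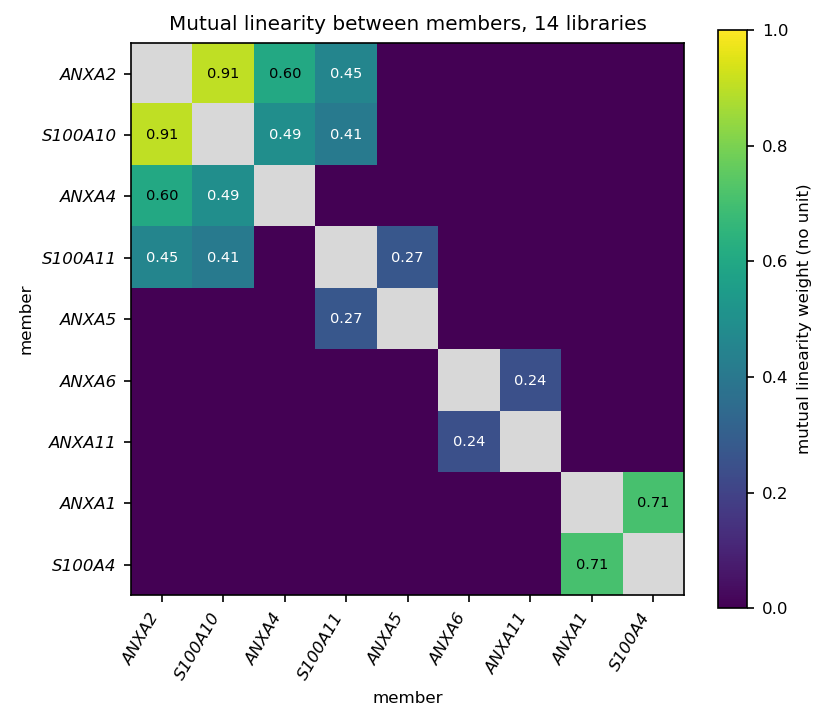
Mutual linearity weight (color, without unit, from 0 to 1) of each pair of the 9 members with counts over 14 libraries; numbers are printed where the weight is above 0, and gray marks the diagonal. ANXA2 and S100A10 have the largest weight (0.905), ANXA1 and S100A4 form a pair of their own (0.710), and ANXA6 is linked to ANXA11 alone (0.245).

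For the 8 members with a mean of at least 10 CPM, genes among the 3 most similar of that level are named. ANXA1 was most like PTPRCAP, CORO1A and OCIAD2, with weights from 0.946 to 0.965. Close to ANXA2 were NME2 and TMEM256 (0.965 and 0.964), and S100A10 was most like HPRT1, MRPS27 and MRPL41 (0.948 to 0.952). ANXA2 and S100A10 were linked to about as many genes, 34.0% and 33.2% of 9210. S100A11 was most like SRSF12, PLIN2 and PCSK6 (0.815 to 0.857), ANXA4 most like MFSD13A, GSS and WDR91 (0.762 to 0.810) and ANXA5 most like TLE1, LZTS3 and SGCB (0.649 to 0.760). ANXA6 was most like ACTB, BOLA2-SMG1P6 and BID (0.845 to 0.883), and ANXA11 most like ANAPC15, GRAMD1A and CENPN (0.769 to 0.787).

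Processed pseudogenes could take reads of 2 members. ANXA2P2 held 1.26 to 3.14% of the summed ANXA2 and ANXA2P2 counts, and S100A11P1 at most 0.662% of those of S100A11. Adding the counts of the 11 pseudogenes in the files to these members changed no call of a member between the pure lines.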

How the data were processed

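Polyadenylated RNA of HEK-293T and Jurkat cells and their mixtures was sequenced in 14 libraries. Per the labels and the study's methods, 1 read mate was aligned to GRCh38 and spike-in sequences with STAR 2.6.1b, and the authors deposited expected counts and TPM per gene from RSEM 1.3.1. The annotation was not given in the sources used here. Members were matched by gene ID without version to 10 symbols. CPM was computed here over 58440 genes without the 92 spike-ins, TPM was rescaled over genes, and expected counts were rounded for tests across all genes with edgeR 4.0.16 (TMM, filterByExpr, quasi-likelihood, Benjamini-Hochberg, threshold 0.05) in R 4.3.3. The pure lines were compared over 4 libraries, and the HEK percentage was a numeric term over 10 mixed libraries, printed as the log2 change from 20 to 80% HEK. Alternatives were other scalings, no filter, DESeq2 1.42.0, spike-in totals as library sizes, groups of file names, and leaving out libraries. HEK shares of RNA came from non-negative least squares (SciPy 1.17.1) on row-normalized CPM, and genes with an expected level under 1 CPM were left out of the ratios. Scripts were tested on simulated data. Members, gene lists and the rules for naming genes were chosen with earlier results of these data known: all 10 members were named, of the listed family members and partners those past the threshold or needed for their role, and, for members of at least 10 CPM, the 3 genes of largest mutual linearity weight. Some results under these rules are not reported here. Leaving out the 4 libraries at 50% and 40% HEK, and judging extreme libraries on log2 ratios (Dixon's ratio), were chosen after seeing the data. No amino acid sequences were used here.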

Additional observations from a re-analysis of the deposited data

Results flagged for a closer look

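Over the 10 mixed libraries, the ratio of observed to expected CPM had an extreme library for 2 of the 9 members examined, where chance alone gives about 1 in 20. For ANXA5 it was library 2 at 40% HEK, with a ratio of 2.95 against 1.41 in the next library, a gap that took 0.712 of the whole range (critical value 0.466 for 10 samples). For ANXA1 it was library 2 at 50% HEK, with a ratio of 4.63 against 2.23 in the next, a gap of 0.619 of the range. On the log2 scale of the ratios the gap of ANXA5 stays above the critical value, at 0.558, and that of ANXA1 falls below it, at 0.403, so that 1 of 9 members is extreme there. Both libraries belong to the pairs whose libraries differed most over all genes, and the part of that difference in these values was not tested.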

How the results depend on the processing

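In the pure comparison, with 3825 genes higher in HEK and 3002 higher in Jurkat cells, ANXA1, S100A11 and ANXA5 kept direction and call under all 11 alternatives. Spike-in totals gave 14616 and 509 genes, left 1 member higher in Jurkat cells and reversed ANXA6 (2.41), ANXA11 (3.13) and S100A4 (0.76); by construction they carry the 10.0-fold ratio of gene to spike-in counts. Leaving out each library gave 1769 to 3384 and 1362 to 2843 genes and 2 to 4 members higher in HEK cells; without a HEK library the lone one is assumed to vary like the Jurkat pair.

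In the mixed trend, with 91 genes rising and 876 falling, the alternatives gave 13485 and 212 (spike-in totals, with 6 members rising and 0 falling), 31 and 481 (group of file names as a term), 0 and 203 (the first group alone, edgeR, 1842 genes at an unadjusted p under 0.05) and 434 and 165 (the second group alone). DESeq2 gave 271 rising, and leaving out the libraries at 50% and 40% HEK 357; both called 2 members as falling. Leaving out each library gave 18 to 209 rising genes, both extremes from 20% library 1 and 40% library 1, and 554 to 946 falling. Reversed slopes were those of ANXA6 (1.12), ANXA11 (1.49) and S100A4 (0.72) with spike-in totals, of ANXA2 (-0.57), S100A10 (-0.75), S100A11 (-0.64) and ANXA4 (-0.18) in the second group, and of ANXA4 in the first group (-0.0247), with the group as a term (-0.13) and on leaving out libraries (-0.0529 to 0.189). The causes were not tested.

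Against additive mixing 376 genes met the 1.5-fold rule and 107 a 2-fold rule. Leaving out each library gave 352 to 754, the highest without HEK library 2 (684 without library 1), and 0 to 1 members. The spike-in share gave 427 genes and 1 member. Linked member pairs were 8, and 7 to 11 under the alternatives. No paired analysis was possible because the labels give the libraries no shared replicate numbers. Depth limits S100A11 in Jurkat cells (10 and 6 counts), ANXA1 in HEK cells (11 and 16) and S100A6 throughout.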

Other observations

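ANXA5 differed between the libraries at 40% HEK not only in level, 46.8 CPM in library 1 and 187 CPM in library 2, but also in its mean transcript length as estimated by RSEM. That length was 743 bases in library 2 at 40% HEK and 967 bases in library 2 at 80% HEK, where ANXA5 stood at 100.5 CPM against 55.8 CPM in library 1, and it was between 1085 and 1371 bases in the other 12 libraries. In TPM, ANXA5 was at 35.7 in library 1 and 252 in library 2 at 40% HEK. Whether particular transcripts of the gene differ between libraries was not tested. CACYBP, at 264 and 734 CPM, and ANXA7, at 27.1 and 72.5 CPM, also differed more than 2-fold between libraries of a pure line, HEK and Jurkat respectively. Less abundant genes did so too. Among them were ANXA3 in HEK cells (1.06 and 5.28 CPM), and S100A11 (2.24 and 0.967 CPM) and GCA (1.57 to 4.03 CPM) in Jurkat cells.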
